A study of Mus musculus with 4 samples.

Results

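The collagen genes of the mouse were followed between the Undiff and Day4 states of differentiating embryonic stem cells (ESCs). They were taken by symbol, as every name in the deposited counts that consists of Col, a number, the letter a and a number. This gave 44 genes out of the 24421 in the count files, of which 41 averaged 5 or more normalized counts over the 4 libraries. They were divided by known structure into 11 fibrillar genes, 6 of type IV, 9 FACIT genes (fibril-associated collagens with interrupted helices), 6 of type VI, 4 of network and anchoring collagens, 2 multiplexins, 4 transmembrane collagens and 2 others.

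The 4 Illumina TruSeq libraries came from the mouse ESC line R1, for which the labels name no genetic change, with 2 replicates of Undiff and 2 of Day4 that the methods describe as distinct samples, grown and treated separately. Undiff is described by the labels as embryoid bodies, which are floating aggregates of ESCs, and by the methods as ESCs kept with leukaemia inhibitory factor. Day4 is embryoid bodies grown for 4 days without that factor and then given retinoic acid (RA), a vitamin A metabolite, for 4 days. The RA dose is 2 µM in the series' design text and 2 mM in the treatment label. Day4 without RA was not analysed here, so RA, withdrawal of the factor and time in culture cannot be told apart. If Undiff was as the methods describe it, growth as embryoid bodies cannot be told apart from these either. Embryoid bodies are mixed cultures, and in these bulk counts fewer cells of a type cannot be told apart from less RNA per cell.

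Collagens are the main structural proteins of the extracellular matrix. Each molecule is a helix of 3 chains, wound together where every chain repeats the triplet Gly-X-Y, since only glycine is small enough for the centre of the helix. Fibrillar collagens assemble into the banded fibrils of skin, bone, tendon, cartilage and vessel walls, type IV forms the sheet of basement membranes, and the other classes sit on fibrils, link them to membranes or form networks of their own.

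The fibrillar class can be told from the others by the length of the repeat in its coding sequence. In the GENCODE vM21 annotation of GRCm38, which is the same assembly as mm10, all 44 genes held a stretch of at least 20 consecutive triplets in which the codon GGN (glycine) opened each triplet, in the reading frame of the longest coding sequence. Among 21857 other protein-coding genes, 20 did, or 0.0915%. Fibrillar genes carried an unbroken stretch of 216 to 344 triplets, the longest in Col3a1 (344), with 338 in Col1a1 and 339 in Col1a2. Type IV genes reached 39 to 66 triplets in a row, their helix being divided by short breaks. Runs of like length were found in type VI genes (37 to 87) and transmembrane genes (40 to 56), so they do not mark type IV. Exons of exactly 54 bases, which hold 6 whole triplets, made up 48.6% of the inner coding exons of fibrillar genes (305 of 627). The share was 26.3% in FACIT genes (109 of 415), 4.23% in type IV genes (12 of 284) and 0.445% in non-collagen genes (705 of 158381). Such exons were thus not particular to the fibrillar class.

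**Figure D1:**
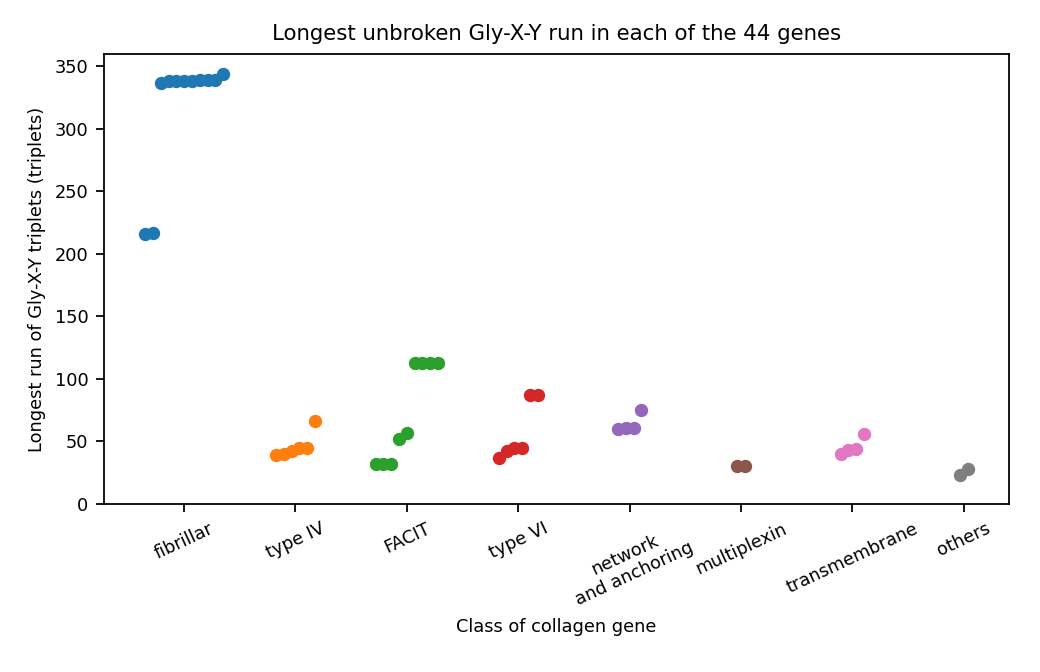
Longest unbroken run of Gly-X-Y triplets (vertical axis, in triplets) in the longest coding sequence of each of the 44 collagen genes, with 1 point per gene and the genes grouped by class. The fibrillar genes lie between 216 and 344, above every gene of the other classes, which lie between 23 and 113.

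The 3 fibrillar genes whose levels the results below turn on most are shown by their first exon of 54 bases inside the helix, on the coding strand. These are exon 6 of 51 of Col3a1 (chr1:45325360-45325413, plus strand), exon 8 of 51 of Col1a1 (chr11:94939904-94939957, plus strand) and exon 8 of 52 of Col1a2 (chr6:4515481-4515534, plus strand). Capitals mark the GGN codons that open the 6 triplets.
Col3a1: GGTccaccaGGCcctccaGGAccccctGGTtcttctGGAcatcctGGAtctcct
Col1a1: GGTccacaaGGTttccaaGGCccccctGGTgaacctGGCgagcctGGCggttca
Col1a2: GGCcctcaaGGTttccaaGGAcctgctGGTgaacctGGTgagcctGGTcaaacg

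A break of the type IV helix is shown for comparison in Col4a1 (exon 21 of 52, chr8:11235141-11235200, minus strand) and in Col4a5 (exon 21 of 54, chrX:141599738-141599797, plus strand), each with the 3 triplets on either side. The capitals mark the GGN codons that open these triplets, and the break is the last 6 bases of the longer lower-case run in the middle, after the X and Y codons of the triplet before it.
Col4a1: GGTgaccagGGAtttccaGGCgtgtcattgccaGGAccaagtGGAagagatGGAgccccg
Col4a5: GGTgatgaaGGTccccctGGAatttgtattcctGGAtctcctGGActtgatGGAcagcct

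Collagen RNA made up a larger share of the counts in Day4. The 44 genes together took 0.0932% and 0.0890% of all counts on genes in the Undiff libraries and 0.356% and 0.339% in the Day4 libraries, a ratio of the means of 3.82. Without Col18a1, the most abundant collagen gene of Undiff, the shares were 0.0343% and 0.0333% in Undiff and 0.302% and 0.287% in Day4. Without Col3a1, the most abundant of Day4, they were 0.0930% and 0.0889% in Undiff and 0.246% and 0.240% in Day4. The 2 states did not overlap in any of these sums. Counts on genes totalled 32099074 to 47730944 a library, so that the floor of 3 counts lay between 0.0629 and 0.0935 CPM.

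A gene was called where edgeR's quasi-likelihood test gave an adjusted p of at most 0.05, the log2 fold change was at least 1 in either direction, and the normalized counts averaged 5 or more. By this rule 35 of the 44 collagen genes (79.5%) were called, 30 of them higher and 5 lower in Day4. Over all 19891 genes tested, 42.8% were called, 22.2% higher and 20.6% lower, and 51.7% of the 16472 genes that averaged 5 or more. The collagen genes called higher (68.2%) were therefore above that background and those called lower (11.4%) below it, a description for which no test was made. The median log2 fold change was 2.70 over the collagen genes and -0.03 over all genes tested. The 5 largest increases were those of Col3a1, Col26a1, Col4a5, Col4a6 and Col6a1, an order in which Col4a6 rests on 2 and 4 Undiff counts and is passed by Col24a1 and Col25a1 without Undiff replicate 1. The 5 genes that fell were Col6a5, Col7a1, Col6a4, Col5a3 and Col17a1.

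**Figure D2:**
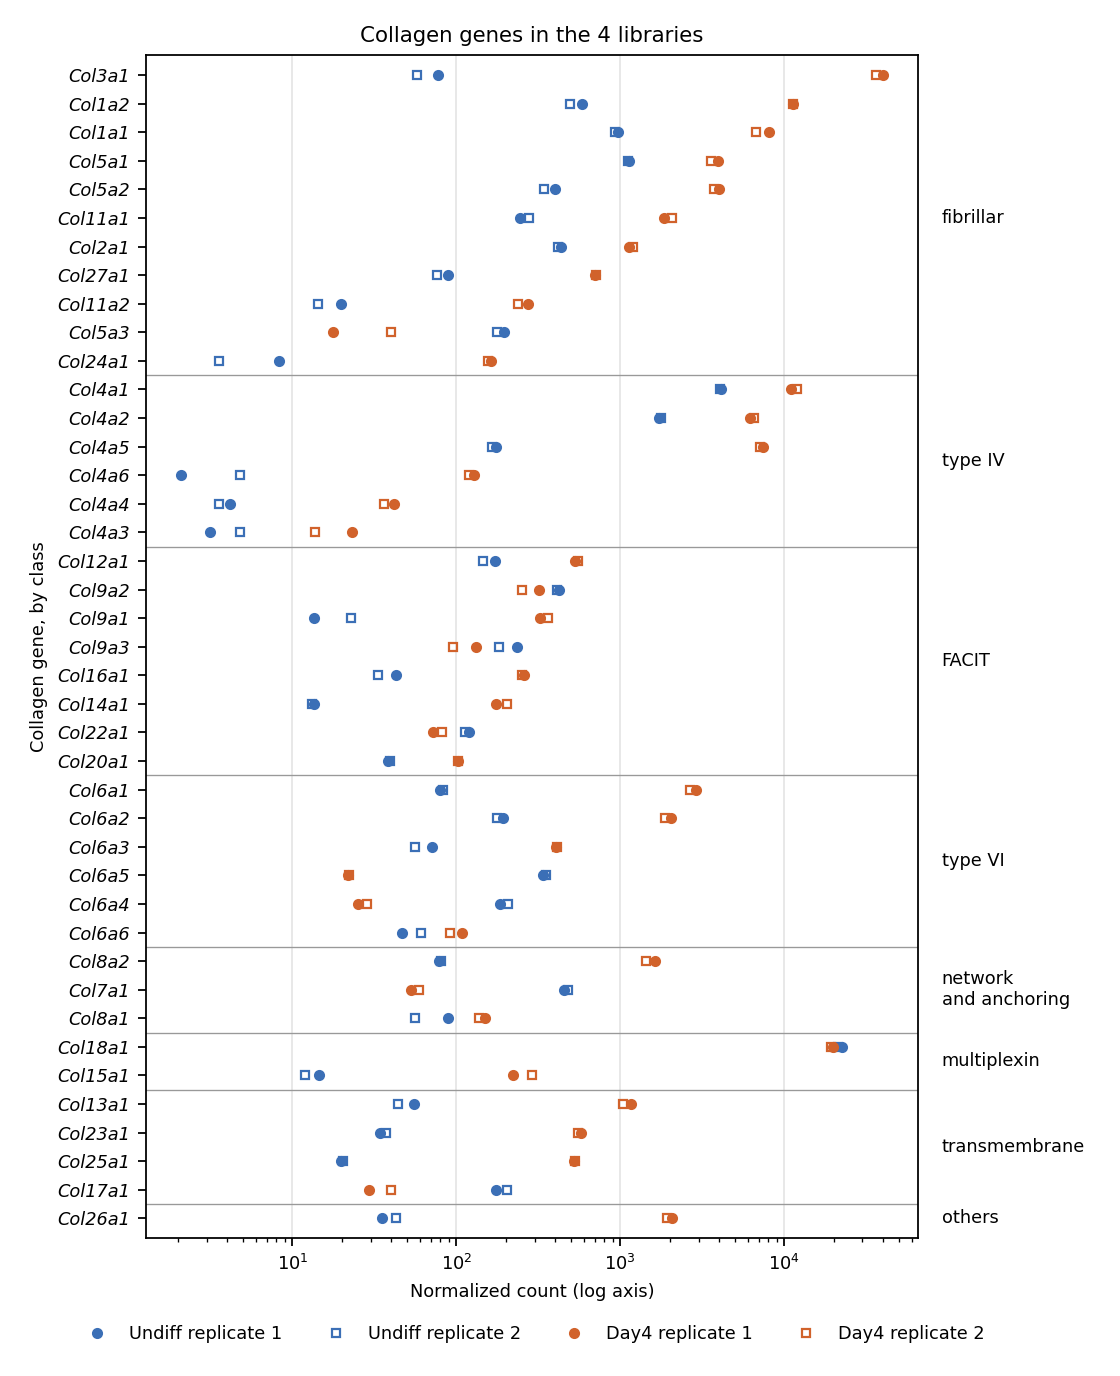
Normalized counts (horizontal axis, logarithmic) of the 41 collagen genes with a mean of at least 5, in each of the 4 libraries, ordered by class and by mean. Blue symbols are the Undiff replicates and orange symbols the Day4 replicates, and for Col3a1 they lie at 77.1 and 57.4 against 40193 and 36401. Positions compare libraries within a gene, since the counts are not divided by gene length.

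The fibrillar class moved almost as a whole. Of its 11 genes, 10 were called higher and 1, Col5a3, lower, with adjusted p-values between 2.3e-16 and 2.0e-07 and a median log2 fold change of 3.09. In no fibrillar gene did the 2 states overlap, but among all collagen genes they did so only in Col28a1. The separation is thus not particular to the class, and its share over all genes was not counted.

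Col3a1 encodes the only chain of type III collagen, the fibril of distensible tissues such as vessel walls and skin. Its normalized counts were 77.1 and 57.4 in Undiff and 40193 and 36401 in Day4. This was a log2 fold change of 9.14 ± 0.09 (SE), or 563-fold, the largest among the collagen genes. Type I collagen, the fibril of bone, tendon and skin, is built from Col1a1 and Col1a2. Col1a1 had 965 and 933 in Undiff and 8024 and 6766 in Day4, a log2 fold change of 2.96 ± 0.08. Col1a2 had 588 and 495 in Undiff and 11386 and 11258 in Day4 (4.38 ± 0.07). Both chains of type I were thus higher in each Day4 library, and per kilobase of transcript Col1a2 was the lower of the pair in Undiff and the higher in Day4.

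Type V collagen sits inside type I fibrils and limits their width. Its main chains rose, with Col5a1 at 1126.5 and 1107 in Undiff and 3953 and 3601 in Day4 (log2 fold change 1.76 ± 0.06), and Col5a2 at 400.2 and 341 in Undiff and 3995 and 3715 in Day4 (3.37 ± 0.08). Col5a3, the third chain of the type, went the other way, from 196 and 176 to 17.8 and 39.9, a log2 fold change of -2.61 ± 0.23. The 2 Day4 values of Col5a3 lie apart from each other, on 17 and 52 raw counts, but both are below the Undiff values. The log2 fold change was -3.41 without Day4 replicate 2 and -2.22 without Day4 replicate 1.

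Type II collagen, the main fibril of cartilage, and type XI collagen, which seeds it, are the cartilage members of the class. Col2a1 had 437 and 415 in Undiff and 1131 and 1192 in Day4, a log2 fold change of 1.45 ± 0.07, the smallest rise in the class. Col11a1 rose from 245 and 278 to 1859 and 2071 (2.92 ± 0.09), and Col11a2 from 19.8 and 14.4 to 275 and 239 (3.87 ± 0.21). The remaining pair, Col24a1 and Col27a1, have a shorter helix (216 and 217 triplets). Col27a1 rose from 88.6 and 76.6 to 702 and 709 (3.09 ± 0.11). Col24a1 had 8 and 3 raw counts in Undiff, and its normalized counts went from 8.34 and 3.59 to 163 and 155 (4.67 ± 0.29, with 5.42 without Undiff replicate 1 and 4.23 without Undiff replicate 2). Of 8 chondrocyte markers, 2 were called higher (Hapln1 and Matn4) and 5 lower (Acan, Matn1, Matn3, Comp and Ucma). The 8 together summed to 1363 and 1255 in Undiff and 1489 and 1586 in Day4, but different genes made up the sums. Hapln1 alone held most of the Day4 sum (1419 and 1520, from 44.8 and 55.0 in Undiff). Acan and Matn3 (536 and 459) held most of the Undiff sum. Ucma and Lect1 had no counts in Day4, and Acan, the core protein of aggrecan, went from 663 and 609 to 5.22 and 3.07. The part of cartilage cells in these changes was not tested.

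Type IV genes were called higher in all 6 cases, with a median log2 fold change of 2.71 and adjusted p-values from 1.1e-15 to 0.0037. Col4a1 and Col4a2 form the chain pair present in nearly all basement membranes. Col4a1 rose from 4104 and 4054 to 11021 and 11993, a log2 fold change of 1.50 ± 0.05. Col4a2 rose from 1734 and 1772 to 6212 and 6526, by 1.86 ± 0.05. The other 4 genes encode the chains of specialised basement membranes, such as those of the kidney glomerulus. Among these Col4a5 stood out in level, with 174 and 165 in Undiff and 7441 and 7164 in Day4, a log2 fold change of 5.42 ± 0.07, or 43.0-fold.

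Col4a3, Col4a4 and Col4a6 started near the floor. Col4a6 had 2 and 4 raw counts in Undiff, or 2.08 and 4.79 normalized, and 128 and 120 normalized in Day4 (5.16 ± 0.34). Col4a4 had 4 and 3 raw counts in Undiff, or 4.17 and 3.59 normalized, and 41.8 and 36.1 in Day4 (3.26 ± 0.44). Col4a3 had 3 and 4 raw counts in Undiff, or 3.13 and 4.79 normalized, and 23.0 and 13.8 in Day4 (2.15 ± 0.57). The size of these 3 changes rests on few counts in Undiff, while the direction is the same in each Day4 library. Col4a3 and Col4a4, which share a trimer with Col4a5, stayed far below it in Day4.

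The 6 type IV genes lie in 3 head-to-head pairs. As all 6 rose, both genes of each pair did so, as they would under any pairing. Col4a1 and Col4a2 on chromosome 8 overlap by 22 bases at their starts, Col4a4 and Col4a3 on chromosome 1 begin 71 bases apart, and Col4a6 and Col4a5 on chromosome X begin 1308 bases apart. The log2 fold changes within a pair were 1.50 and 1.86 for Col4a1 and Col4a2, 3.26 and 2.15 for Col4a4 and Col4a3, and 5.16 and 5.42 for Col4a6 and Col4a5. That of Col4a6 was 4.66 without Undiff replicate 1 and 5.81 without Undiff replicate 2, so that its nearness to Col4a5 depends on the library kept. The methods say that gene counts took strandedness into account and name Direct RNA alone as strand-specific, and where the strand of TruSeq fragments was not used, a few fragments at the overlap of Col4a1 and Col4a2 may be assigned to the wrong gene or to none.

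Markers of cells that make much basement membrane did not all move with type IV. Of 8 parietal endoderm markers, 5 were called higher (Plat, Stra6, Thbd, Dab2 and Sparc), Lama1, a laminin chain, was called lower, and Lamb1 and Lamc1 were not called. Their summed normalized counts were 48206 and 50071 in Undiff and 68446 and 68791 in Day4. In these sums Sparc went from 14001 and 14179 to 32709 and 32389, and Plat from 210.5 and 150.8 to 12977 and 12908. The listed laminin chains all went down, with log2 fold changes of -2.34 (Lama1), -0.95 (Lamc1) and -0.46 (Lamb1). Of 6 endothelial markers, Cdh5, Kdr, Tie1 and Emcn were called higher and Pecam1 and Tek lower, with a sum of 6318 to 6394 in Undiff and 11431 to 11635 in Day4. The part of these cells in the type IV result was not tested.

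**Figure D3:**
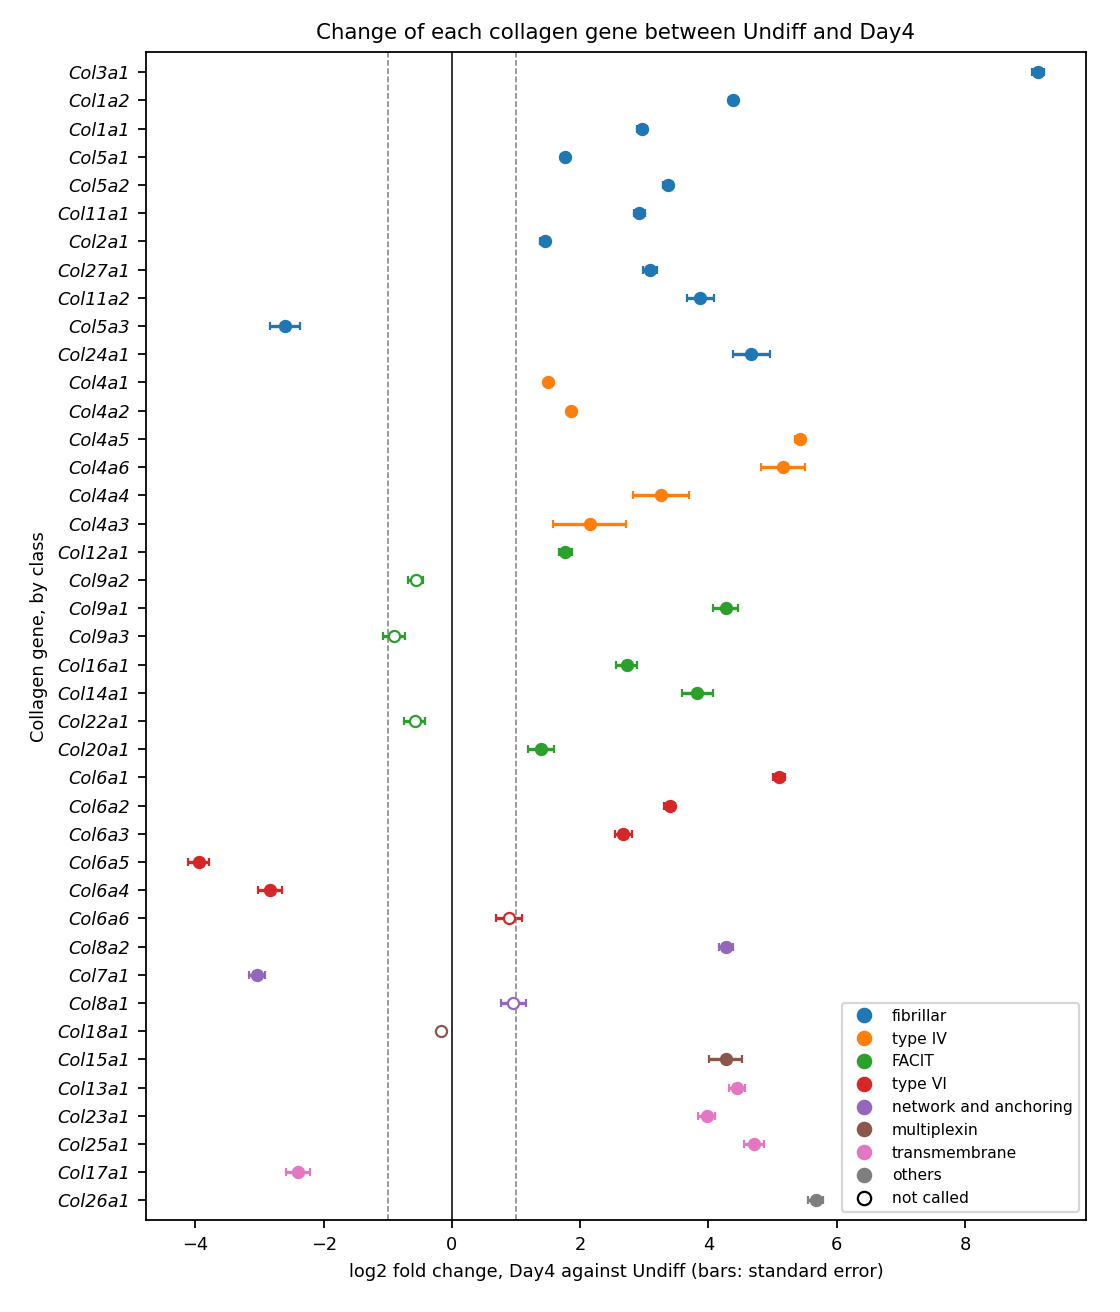
Log2 fold change of Day4 against Undiff (horizontal axis) for the 41 collagen genes that averaged 5 or more normalized counts, with the standard error as a bar and colour by class. Filled points were called and open points were not, and dashed lines mark a log2 fold change of 1 in either direction. All 6 type IV genes and 10 of the 11 fibrillar genes lie to the right, with Col3a1 farthest at 9.14.

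The FACIT class, whose members decorate the surface of fibrils, was mixed. Of its 9 genes, 5 were called higher and 4 were not called, and the median log2 fold change was 1.48. Type IX collagen of cartilage needs a chain from each of Col9a1, Col9a2 and Col9a3, and these did not move together. Col9a1 rose from 13.5 and 22.7 to 326 and 361, a log2 fold change of 4.27 ± 0.20. Col9a2 went from 422 and 412 to 321 and 250.3 (-0.57 ± 0.11), and Col9a3 from 233 and 182 to 133 and 95.2 (-0.91 ± 0.17). Both passed the adjusted p (4.6e-04 and 3.2e-04) and missed the minimum fold change. Per kilobase of transcript, the mean of Col9a1 was 4.73 in Undiff, against 143 for Col9a2 and 73.0 for Col9a3, and in Day4 it was 89.6 ± 6.44 (SD, n = 2), within the spread of Col9a2 (97.7 ± 17.0). Col9a3 overlaps Tcfl5 on the annotation, and its counts are uncertain to that extent.

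Col12a1 and Col14a1, which bind type I fibrils, and Col16a1 rose. Col12a1 went from 172 and 146 to 533 and 554 (1.77 ± 0.10), Col14a1 from 13.5 and 13.2 to 174 and 205 (3.83 ± 0.24), and Col16a1 from 42.7 and 33.5 to 258 and 252 (2.72 ± 0.16). Col20a1, less abundant, was called higher as well (1.39 ± 0.20). Col22a1, known from the junction of muscle and tendon, passed the adjusted p in edgeR with a log2 fold change of -0.58 ± 0.16 (adjusted p = 0.0057) but was not called. It did not pass in DESeq2, where the adjusted p was 0.061 with and without shrinkage. Col19a1 had between 0 and 3 counts in each library, and no fold is given for it.

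Type VI collagen forms beaded filaments around cells, from Col6a1, Col6a2 and 1 further chain, which can be that of Col6a3, Col6a4, Col6a5 or Col6a6. The obligatory chains and Col6a3 rose. Col6a1 went from 79.2 and 82.6 to 2915.5 and 2653, a log2 fold change of 5.10 ± 0.10, or 34.4-fold. Col6a2 went from 192 and 176 to 2031 and 1863 (3.40 ± 0.08), and Col6a3 from 70.9 and 56.2 to 405 and 410.0 (2.67 ± 0.13). The alternative chains behaved differently. Col6a5 fell from 336 and 352 to 21.9 and 22.3 (-3.95 ± 0.16), and Col6a4 from 183 and 206 to 25.1 and 28.4 (-2.84 ± 0.19). Col6a6 had 46.9 and 61.0 in Undiff and 108 and 92.1 in Day4 and was not called (0.88 ± 0.20, adjusted p = 0.0013). Per kilobase of transcript, Col6a5 had the highest mean of the 4 alternative chains in Undiff (42.7), and Col6a3 in Day4 (40.3).

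The genes for these alternative chains lie side by side on the minus strand of chromosome 9, apart from Col6a3, which is on chromosome 1. Col6a6 (105687809 to 105828160) is followed by Col6a5 (105856078 to 105960643) after 27917 bases and by Col6a4 (105989454 to 106096783) after a further 28810 bases. The 2 that fell are neighbours, and Col6a6, next to them, did not fall. Col6a2 and Col6a1 lie 85161 bases apart on the same strand of chromosome 10, and both rose. Col3a1 and Col5a2 lie tail to tail on chromosome 1 with 24614 bases between them, and both rose, though by unequal amounts (9.14 and 3.37).

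Among the network and anchoring collagens, 1 gene rose and 1 fell. Col8a2, a chain of the hexagonal network under the corneal endothelium and in vessels, rose from 78.2 and 80.2 to 1631 and 1443 (4.27 ± 0.11). Its partner Col8a1 had 88.6 and 56.2 in Undiff and 150.4 and 137 in Day4, a log2 fold change of 0.96 ± 0.19 (adjusted p = 4.6e-04), just short of the minimum. Col7a1, the anchoring fibril that ties the epidermal basement membrane to the dermis, fell from 455 and 481 to 53.3 and 59.1 (-3.04 ± 0.13). Col10a1, made by hypertrophic chondrocytes, had 10 and 3 raw counts in Undiff and 3 and 2 in Day4, and overlaps Nt5dc1.

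Multiplexins are proteoglycans of the basement membrane zone whose end fragments are known as endostatin (Col18a1) and restin (Col15a1). Col18a1 had the smallest change in size among the 41 collagen genes that averaged 5 or more, at 22531 and 21399 in Undiff and 19721 and 19382 in Day4. The states did not overlap and the adjusted p was 0.0016, but the log2 fold change was -0.17 ± 0.04, and the gene was not called. Col15a1 rose from 14.6 and 12.0 to 221 and 290.2 (4.27 ± 0.26).

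Of the transmembrane collagens, which are anchored in the cell membrane by their own chain, 3 rose and 1 fell. Col13a1 went from 55.2 and 44.3 to 1167 and 1033 (4.45 ± 0.13), Col23a1 from 34.4 and 37.1 to 572 and 554 (3.97 ± 0.14), and Col25a1 from 19.8 and 20.3 to 521 and 532 (4.71 ± 0.15). Col17a1, the hemidesmosome collagen that holds basal epithelial cells to their membrane, fell from 174 and 203 to 29.2 and 39.9 (-2.41 ± 0.19). Col17a1 and Col7a1, which both belong to the epithelial attachment complex of skin, are thus among the 5 collagen genes that fell. Col26a1, also called Emid2, had 35.4 and 43.1 in Undiff and 2060 and 1929 in Day4, a log2 fold change of 5.67 ± 0.11, or 50.9-fold, second to Col3a1. Col28a1 had between 0 and 5 counts in each library and was not called.

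The make-up of the collagen counts changed with these genes. In Undiff, Col18a1 alone held 63.2% and 62.6% of the collagen counts, followed by Col4a1 with 11.5% and 11.9%. In Day4, Col3a1 held 30.9% and 29.3% and Col18a1 15.2% and 15.6%, although the level of Col18a1 itself had hardly moved. Fibrillar genes together went from 11.6% and 11.4% of the normalized collagen counts to 55.1% and 53.2%. Type IV genes went from 16.9% and 17.6% to 19.1% and 20.8%, and FACIT genes from 2.96% and 2.81% to 1.48% and 1.53%. The FACIT class thus took a smaller share of a larger total, with summed normalized counts of 1056 and 962 in Undiff and 1920 and 1904 in Day4.

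**Figure D4:**
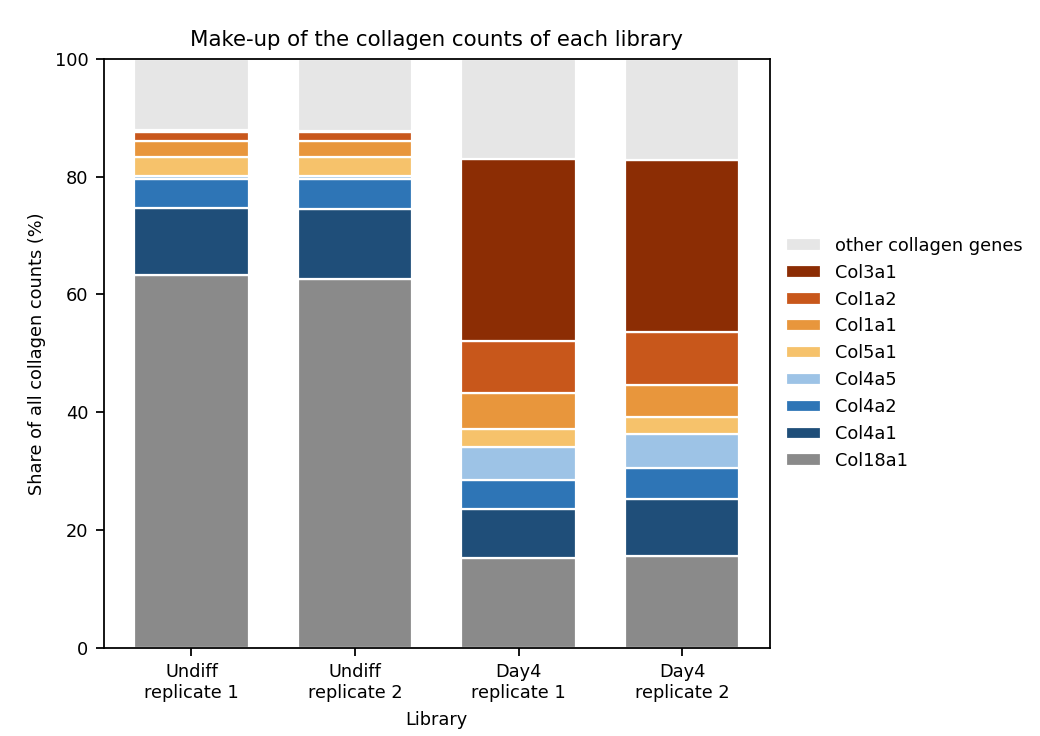
Share of all collagen counts (vertical axis, in percent) held by 8 collagen genes and by the other 36 together, in each of the 4 libraries. Col18a1 fills 63.2% and 62.6% of the Undiff bars, and Col3a1 fills 30.9% and 29.3% of the Day4 bars.

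For a comparison between genes, normalized counts were divided by the length in kilobases of the transcript with the longest coding sequence. On this per-kilobase scale the order in Undiff was Col18a1 (3926 ± 143, SD, n = 2), Col4a1 (617 ± 5.37), Col4a2 (272 ± 4.17), Col1a1 (160.1 ± 3.75) and Col9a2 (143 ± 2.47). In Day4 it was Col3a1 (6883 ± 482), Col18a1 (3494 ± 43.1), Col1a2 (2117 ± 17.0), Col4a1 (1740 ± 104) and Col1a1 (1247 ± 150.0). Col3a1 moved from rank 26 of the 44 in Undiff to rank 1 in Day4. Col1a1 and the gene after it in Day4, Col4a5 (1162 ± 31.1), lie closer together than the SD of Col1a1, and their order is not resolved.

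Chains that share a molecule need not be equal in RNA, and the ratio between partners moved in most pairs. For 9 pairs fixed from known trimers, the ratio of counts per kilobase was computed in each library. With 2 libraries against 2, an exact two-sided permutation test cannot give a p below 0.333. That value was reached by 8 of the 9 pairs (0.375 adjusted over the 9), and no pair can pass a threshold of 0.05, so the ratios are given as a description. Col1a1 over Col1a2 was 1.48 and 1.70 in Undiff and 0.636 and 0.542 in Day4, where the trimer takes 2 chains of the first to 1 of the second. Col5a1 over Col5a2 likewise crossed 1, from 2.22 and 2.56 to 0.780 and 0.764. Col6a1 over Col6a2 crossed it the other way, from 0.398 and 0.452 to 1.38 and 1.37.

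Col4a1 over Col4a2 changed little by comparison, from 2.31 and 2.23 to 1.73 and 1.79, around the ratio of 2 in the trimer. Col4a5 over Col4a6 was 88.3 and 36.5 in Undiff, where Col4a6 had 2 and 4 counts, and 61.3 and 63.3 in Day4, the single pair in which the states overlapped. Col4a3 over Col4a4 rests on 3 to 4 counts a chain in Undiff and was 0.650 and 0.453 in Day4. The largest shifts were those of Col9a1 over Col9a3, from 0.0431 and 0.0928 to 1.82 and 2.81, and of Col8a1 over Col8a2, from 0.961 and 0.595 to 0.0782 and 0.0803. Col11a1 over Col11a2 went from 8.70 and 13.6 to 4.76 and 6.10.

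**Figure D5:**
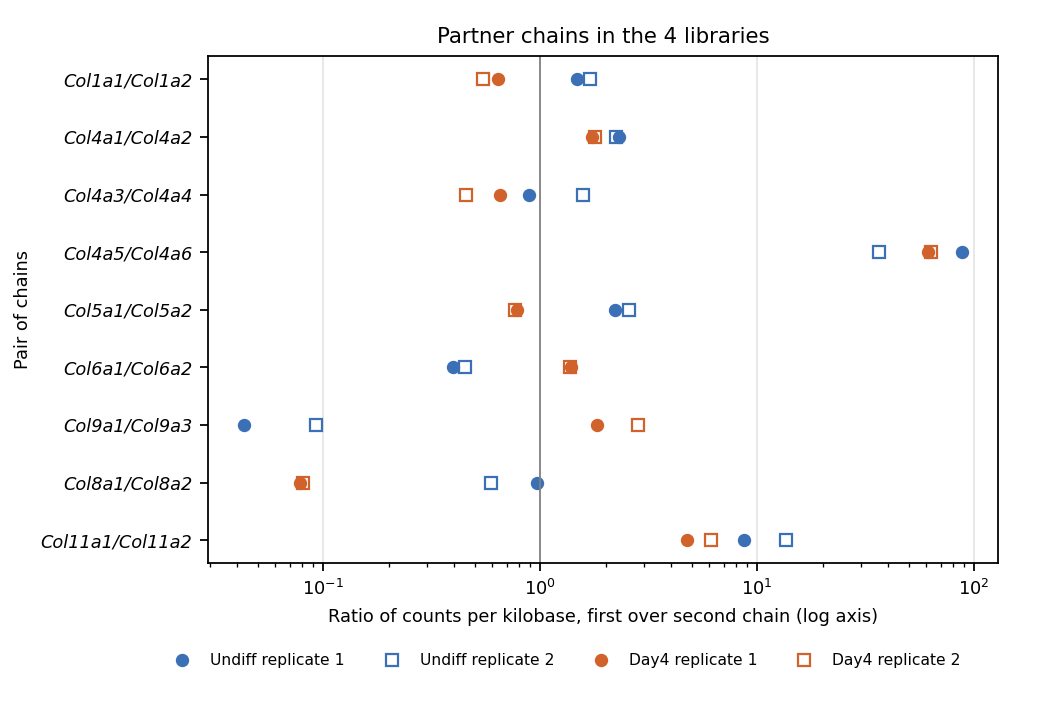
Ratio of the counts per kilobase of 2 chains of the same collagen type (horizontal axis, logarithmic, first chain over second) for 9 pairs, with 1 symbol per library. Blue Undiff and orange Day4 symbols are apart in 8 pairs and overlap for Col4a5/Col4a6, and the vertical line marks a ratio of 1.

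Collagen chains pass through hydroxylation, folding, export, propeptide cleavage and cross-linking before they form a matrix, and bind receptors and other matrix proteins afterwards. Of 74 genes on 9 lists for these steps, 31 were called higher and 11 lower in Day4, and 32 were not called. The 42 called are 56.8% of the lists, against 42.8% of all genes tested and 51.7% of those that averaged 5 or more. Some listed genes, such as Kera and Mmp8, averaged less and could not be called, and no test of the difference was made. The median log2 fold change over the lists was 0.92, against 2.70 for the collagen genes and -0.03 for all genes. Most steps had some genes on either side of the threshold, as given next by step.

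Of 14 genes listed for the hydroxylation and glycosylation of prolines and lysines, 5 were called higher (P4ha1, P4ha3, P3h2, P3h3 and Colgalt2) and 9 were not called. P4ha1, a catalytic subunit of prolyl 4-hydroxylase, rose from 3419 and 2589 to 6769 and 6473 (1.14 ± 0.09), and P3h3 from 187 and 226 to 1401 and 1238 (2.68 ± 0.10). Plod2, the lysyl hydroxylase of telopeptides, was not called (-0.37 ± 0.06). The summed counts of this list were 80235 to 82867 in Undiff and 76275 to 78083 in Day4, and P4hb, the shared subunit that is also a general protein disulphide isomerase, held most of both sums (53035 and 52629 in Undiff, 41961 and 41300 in Day4).

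Among 7 chaperones and export factors, 3 were called higher. Serpinh1, also called HSP47, a chaperone specific to collagen, rose from 2241 and 2008 to 30898 and 29461 (3.83 ± 0.06), Fkbp14 by 2.83 ± 0.07, and Sparc, a collagen-binding matrix protein, by 1.21 ± 0.04. The proteinases and enhancers of propeptide cleavage were divided, with 4 of 8 called higher (Bmp1, Tll1, Adamts2 and Adamts3) and 2 lower. Bmp1, the C-proteinase, rose from 585 and 550.4 to 4659 and 4416 (2.996 ± 0.06), and Adamts2, an N-proteinase, by 3.43 ± 0.14. Adamts14, another N-proteinase, fell from 798 and 853 to 19.8 and 13.1 (-5.68 ± 0.15), and Pcolce2, an enhancer of C-propeptide cleavage, from 1053.5 and 1074.5 to 40.7 and 50.7 (-4.51 ± 0.11). Of the 5 lysyl oxidases, which cross-link fibrils, Loxl1 (4.30 ± 0.12), Loxl2 (2.64 ± 0.12) and Loxl3 (3.01 ± 0.11) rose, Loxl4 fell (-3.08 ± 0.25), and Lox itself was not called (0.97 ± 0.12).

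Of 10 collagen receptors, Mrc2, an endocytic collagen receptor (3.30 ± 0.06), Ddr2, a receptor kinase for fibrillar collagen (2.23 ± 0.11), and Itga2 (3.69 ± 0.57) were called higher. Itga10 (-1.88 ± 0.19) and Lair1 were called lower. The 50% of receptors called lies near the 42.8% of all genes tested and the 51.7% of those that averaged 5 or more. Ddr1 (0.91 ± 0.05), Itgb1 (0.47 ± 0.04) and Itga1 (0.47 ± 0.20) were not called. Of 12 proteins that bind fibrils, 5 were called higher, with Postn, or periostin (5.48 ± 0.12), and Dcn, or decorin (3.73 ± 0.23), beside Lum, Fmod and Ogn. The 4 called lower were Bgn, or biglycan (-2.42 ± 0.14), Aspn, Thbs2 and Fn1. Fn1, or fibronectin, which was singled out after its values were seen, fell from 54566 and 51393 to 10708 and 11465 (-2.26 ± 0.05), and with it the sum of the list fell while that of the collagens rose. Among 5 basement membrane partners of type IV, Pxdn, the peroxidase that cross-links it, rose (2.30 ± 0.05), and Nid1, Nid2, Hspg2 and Agrn, with log2 fold changes between -0.96 and -0.08, were not called.

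Of 6 proteases that degrade collagen, Mmp2 rose from 1977 and 1831 to 25652 and 24840 (3.73 ± 0.05) and Mmp14, its activator, by 2.15 ± 0.05, while Mmp9 (-2.93 ± 0.22) and Mmp13 were called lower. Of 7 transcription factors known to act on collagen genes, Sox9, Sox5, Sox6, Runx2 and Scx were called higher. Sox9 rose from 8.34 and 5.98 to 1345 and 1422 (7.56 ± 0.15), Sox6 by 6.03 ± 0.17 and Sox5 by 5.34 ± 0.28. Sp7 and Mkx were not called. Sox9 is known as an activator of Col2a1, Col9a1, Col11a2 and Acan, and these went from -7.28 (Acan) to 4.27 (Col9a1) on the log2 scale.

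Markers of cell types were read beside the collagen genes. Over all genes tested 42.8% were called, 22.2% higher and 20.6% lower, a share to set beside these marker counts and those given above. All 8 pluripotency markers fell, with a sum of 139380 and 143290 in Undiff and 868 and 735 in Day4. Of 10 markers of fibroblasts and mesenchyme, 8 were called higher (Pdgfra, Pdgfrb, Twist1, Twist2, Prrx1, Cd248, Fap and Vim) and Thy1 and S100a4 lower, with a sum of 4264 and 4306 in Undiff and 30627 and 30346 in Day4. Vim (14825 and 15087) and Pdgfra (7291 and 7218.5) held most of the Day4 sum, and Fap had no counts in Undiff. Of 5 osteoblast markers, Ibsp was called higher and Alpl lower, with Bglap and Dmp1 at the floor in all 4 libraries. Of 6 visceral endoderm markers 3 were called higher (Afp, Ttr and Apoa1) and Amn and Cubn lower, of 5 smooth muscle markers Acta2 alone was called, as higher, and of 6 neural markers Nes was called higher and Pax6, Sox1, Tubb3 and Elavl3 lower. The rise of the fibroblast and mesenchyme markers accompanied that of the fibrillar genes in both Day4 libraries, and its part in the collagen result was not tested.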

How the data were processed

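RNA of Undiff and Day4 R1 cells was sequenced as paired-end Illumina TruSeq libraries. The authors used cutadapt for trimming, STAR 2.4.2a for alignment to mm10 and htseq-count for counting uniquely aligned fragments per gene symbol (the methods took strandedness into account and name Direct RNA alone as strand-specific). The deposited values are raw counts, and the 5 summary lines of each file were left out of library sizes and tests (fragments on no gene were 12.1% and 13.2% in Undiff and 7.50% and 7.74% in Day4). States and replicates came from the sample labels.

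TMM normalization and edgeR 4.0.16 in R 4.3.3 were used (estimateDisp, then glmQLFit without the legacy estimate, which gave 10.4 prior degrees of freedom) over all 19891 genes with a count, with Benjamini-Hochberg adjustment. The standard error is the log2 fold change divided by the square root of F. Normalized counts are counts brought to one effective library size, the geometric mean over the libraries. DESeq2 1.42.0 served as an alternative. Lengths, positions and sequences are from GENCODE vM21, matched by symbol for all 44 genes. Figures were drawn with matplotlib 3.10.9.

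Collagen members, classes and gene lists were chosen with earlier results of these data known. Named were all fibrillar and type IV genes with a mean of at least 5, genes of other classes with a mean of at least 100, the 5 largest changes in each direction, genes with a mean of at least 5 that were not called, up to 3 called genes per pathway list with a mean of at least 100, and Serpinh1, Lox, P4ha1, Plod2, Bmp1, Ddr1, Ddr2, Itga1, Itga2, Itgb1 and Sox9. Other named genes, such as those that make up a count of 5 or fewer, were chosen after their values were seen.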

Additional observations from a re-analysis of the deposited data

How the results depend on the processing

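The 35 collagen calls were kept, with their direction, under each of 14 alternatives: DESeq2 with and without shrinkage, other size factors or library totals in place of TMM, filterByExpr, a replicate block, thinned libraries, no minimum fold change, no minimum count, each library left out in turn, and the earlier quasi-likelihood estimate, added after the data were seen. Dropping the minimum fold change or the minimum count only removes a condition from the same fit, so no call could be lost there. Without the minimum fold change, 41 collagen genes passed in edgeR, 9 of them lower in Day4 against 5 with it. With library totals 36 collagen genes were called, Col8a1 being added at 1.02 on the log2 scale. Leaving out 1 library gave 36 to 38 collagen genes (30 to 31 higher, 5 to 7 lower) and 41 to 43 genes of the pathway lists, against 42. Col9a3, Col8a1 and Col6a6, close to the minimum fold change, passed it in some of these fits. Without Undiff replicate 2, Col9a3 stood at -1.07 and Col6a6 at 1.07, and without Day4 replicate 1 Col9a3 stood at -1.13. Col8a1 stood at 1.34 without Undiff replicate 1 and at 1.00 without Day4 replicate 2. A collagen gene that averaged below 5 over the 4 libraries was also added, as lower, without Undiff replicate 2. With 1 library in a state, that library is assumed to vary like the others. No effect shared by replicate number was seen in the counts, as the difference between replicates correlated at -0.007 between the states over genes. This cannot tell whether samples of the same number were paired in culture. With a replicate block 35 collagen genes and 42 list genes were called, as without it. The ratios between chains had the same shift without division by length, which cancels. Leaving out 1 library moved the fold of 3 called collagen genes by over 1.5 times, namely Col5a3 (-3.41 without Day4 replicate 2), Col24a1 (5.42 without Undiff replicate 1) and Col4a6 (5.81 without Undiff replicate 2). Depth limits Col24a1, Col4a3, Col4a4, Col4a6, Col10a1, Col19a1 and Col28a1, which had at most 10 counts in each Undiff library.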
